A study of Mus musculus with 6 samples.

Results

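The 83 genes described here encode the proteins of the cytosolic ribosome and their paralogues, out of 51911 genes in the deposited count table. They are the protein-coding genes with a symbol of the form Rpl or Rps plus digits and an optional letter or l suffix, together with Rplp0 to Rplp2 and Rpsa, and without the Rps6k kinases. Of them, 52 belong to the large subunit and 31 to the small subunit. Rpl7l1 and Rpl22l1 were read as l-suffix paralogues. Rps3a1 has another symbol form and was left out.

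RNA was sequenced from the gastrocnemius muscle of male mice, with 3 libraries from mice labelled HSA-PGC-1a3 transgenic and 3 libraries from wild-type mice. The transgene expresses PGC-1a3, an isoform of the transcriptional coactivator PGC-1a, from the human skeletal actin promoter, which is active in skeletal muscle fibres. The labels give no agent, age or strain for either genotype. They also do not say how many animals stand behind a library, so p-values measure the spread between these libraries.

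A ribosome joins a large subunit, which forms peptide bonds, to a small subunit, which decodes the messenger RNA. Most ribosomal proteins are needed in equal number, and their mRNAs begin with a run of pyrimidines that ties their translation to growth signals through mTOR and the RNA-binding protein Larp1. A few have paralogues that replace the canonical protein in some tissues, and Rpl3l, which takes the place of Rpl3 in skeletal and cardiac muscle, is the best known of these in this tissue.

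Sequences around the RefSeq gene start (GRCm38.p6) are shown as examples, for some of the members whose values the results turn on. They do not stand for all genes that were higher or lower. Each line gives 60 bases before the start and 20 bases from it, 5′ to 3′ on the gene's strand. Capitals mark the longest unbroken run of C or T within 20 bases on either side of the start. The windows are at chr7:109519135-109519214 (Rpl27a, plus strand), chr7:45128726-45128805 (Rpl13a, minus strand), chr7:4792905-4792984 (Rpl28, plus strand), chr2:180257319-180257398 (Rps21, plus strand), chr3:28805448-28805527 (Rpl22l1, plus strand), chr17:24727766-24727845 (Rpl3l, plus strand) and chr9:66946026-66946105 (Rps27l, plus strand). The first 4 genes were higher in the transgenic muscle, and the last 3 were lower.
Rpl27a: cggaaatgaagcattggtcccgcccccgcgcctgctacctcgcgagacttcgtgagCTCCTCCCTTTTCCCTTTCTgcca
Rpl13a: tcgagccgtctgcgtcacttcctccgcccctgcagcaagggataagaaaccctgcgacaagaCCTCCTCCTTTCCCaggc
Rpl28: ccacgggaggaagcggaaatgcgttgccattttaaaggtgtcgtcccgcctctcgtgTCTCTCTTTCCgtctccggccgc
Rps21: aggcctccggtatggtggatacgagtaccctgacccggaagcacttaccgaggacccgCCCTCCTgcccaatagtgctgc
Rpl22l1: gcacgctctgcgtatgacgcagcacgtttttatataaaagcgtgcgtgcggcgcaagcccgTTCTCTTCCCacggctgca
Rpl3l: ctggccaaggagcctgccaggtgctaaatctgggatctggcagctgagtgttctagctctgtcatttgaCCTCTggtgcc
Rps27l: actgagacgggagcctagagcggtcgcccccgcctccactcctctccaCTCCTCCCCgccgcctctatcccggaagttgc

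The longest run spanned 20 bases in Rpl27a, 14 in Rpl13a, 11 in Rpl28, 7 in Rps21, 10 in Rpl22l1, 5 in Rpl3l and 9 in Rps27l. Windows not shown of other higher members had shorter runs, at 3 in Rpl41, 5 in Rpl27 and 4 and 5 in Rpl22. The other windows of Rps21, Rpl3l and Rps27l each had a longest run of 4. A run of at least 8 pyrimidines stood in 41.3% of the 75 windows of the 63 members that had a window, and in 16% of all 32851 RefSeq windows. By call, the share was 34.8% of 23 windows of higher members, 33.3% of 12 windows of lower members and 50% of 38 windows of members that were not called. The share of windows was close between members that fell and members that rose, and both were below that of members that were not called. The 23, 12 and 38 windows came from 18, 9 and 34 genes, so genes with several windows were counted more than once.

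Other motifs were searched over the whole RefSeq window, from 250 bases before the start to 50 bases after it, on both strands. CCGGAAG, the core recognised by ETS-family factors, was present in 34.7% of members' windows and 8.86% of all windows. ATGGCG, the core recognised by YY1, was present in 32.0% and 8.93%. GGGCGG, recognised by Sp-family factors, was present in 60% and 35.7%. AAGGTCA, the half-site of the estrogen-related receptors through which PGC-1a coactivators are known to act, was present in 9.33% of members' windows and 4.72% of all windows. It was found in 0 of the 23 windows of higher members and in 2 of the 12 windows of lower members, among them another Rpl3l window, and in 4 of the 38 windows of members that were not called. CCGGAAG was found in 43.5%, 16.7% and 34.2% of the windows of these 3 groups. On the gene's strand within 20 bases of the start, CTTTTC was present in 6.67% of members' windows and 1.43% of all windows, and CTTCC in 24.0% and 8.81%. These matches describe letters and are not binding sites.

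Total counts ran from 25532146 to 40846872 per library. Ppargc1a, the gene behind the transgene, averaged 2930 CPM in the transgenic and 52.2 CPM in the wild-type group (CPM are counts relative to library size, here scaled by TMM factors, which centre the bulk of genes on no change), so the labels matched the libraries. Markers of muscle fibres were abundant in all libraries, but their summed level was 81906 to 83584 CPM in transgenic and 158486 to 167706 CPM in wild-type libraries, with 6 of 9 markers lower, 1 higher (Myh1) and none at 0. With TMM scaling all 6 endothelial markers were lower, summing to 306 to 322 CPM against 391 to 415 CPM. Their log2 fold changes ran from -0.64 (Vwf) to -0.24 (Kdr). Scaling matters for changes of this size. The middle value over the tested genes was -0.02 with TMM factors and 0.38 with library totals alone. Whether endothelial or other markers keep their direction with library totals alone was not tested. Of 6 fibroblast markers 2 were lower, of 5 satellite cell markers 2 were higher and 1 lower, and of 5 adipocyte markers 1 was lower. Adipocyte markers summed to 286 CPM in wild-type library 1 and to 187 and 177 CPM in the other wild-type libraries, against 131 to 159 CPM in the transgenic ones. Of 6 macrophage markers 2 were higher, and Cd3e was the only lymphocyte marker of 7 with enough counts to be tested (8.57 against 1.04 CPM). The part of these markers in the ribosomal protein results was not tested. In whole muscle, fewer cells of a type and less RNA per cell cannot be told apart.

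The ribosomal protein genes did not move as a block. The comparison asked which of them differed between the genotypes, and it found 23 higher in the transgenic muscle, 10 lower and 48 that did not pass the test, among 81 members with enough counts to be tested (edgeR's quasi-likelihood test with a Benjamini-Hochberg threshold of 0.05 over 16593 genes). This is 40.7% of tested members called, against 50.7% of all tested genes. The share of members called higher was 28.4% against 25.5% of all genes, and the share called lower was 12.3% against 25.2%. The median log2 fold change was 0.07 for the members and -0.02 for all genes, and the members' middle 50% ran from -0.09 to 0.32. Values did not overlap between genotypes for 41 members (50.6%, against 59.6% of all genes), 29 of them higher and 12 lower. Only 10 of the 81 tested members were called and differed by 1.5-fold or more, 9 higher and 1 lower. Of all 16593 tested genes, 3979 were called and differed as much, 2107 higher and 1872 lower.

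The direction of small changes rested on the scaling between libraries. With library totals alone, without TMM factors, the median of all genes moved to 0.38, and 60 members were called higher and 2 lower. Higher calls rose from 69.7% to 96.8% of all calls among members. Over all genes they rose from 50.2% to 85.7% of calls (8676 higher and 1448 lower). The 2 members that stayed lower were Rpl22l1 and Rpl3l. The members' median minus the median of all genes was 0.09 under either scaling. Correspondingly, members took a larger share of all counts in the transgenic libraries (0.488%, 0.470% and 0.509%) than in the wild-type libraries (0.353%, 0.383% and 0.357%), while their summed level after TMM scaling overlapped between genotypes, at 4268 ± 174 and 4185 ± 279 CPM (SD, n = 3 each).

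**Figure D1:**
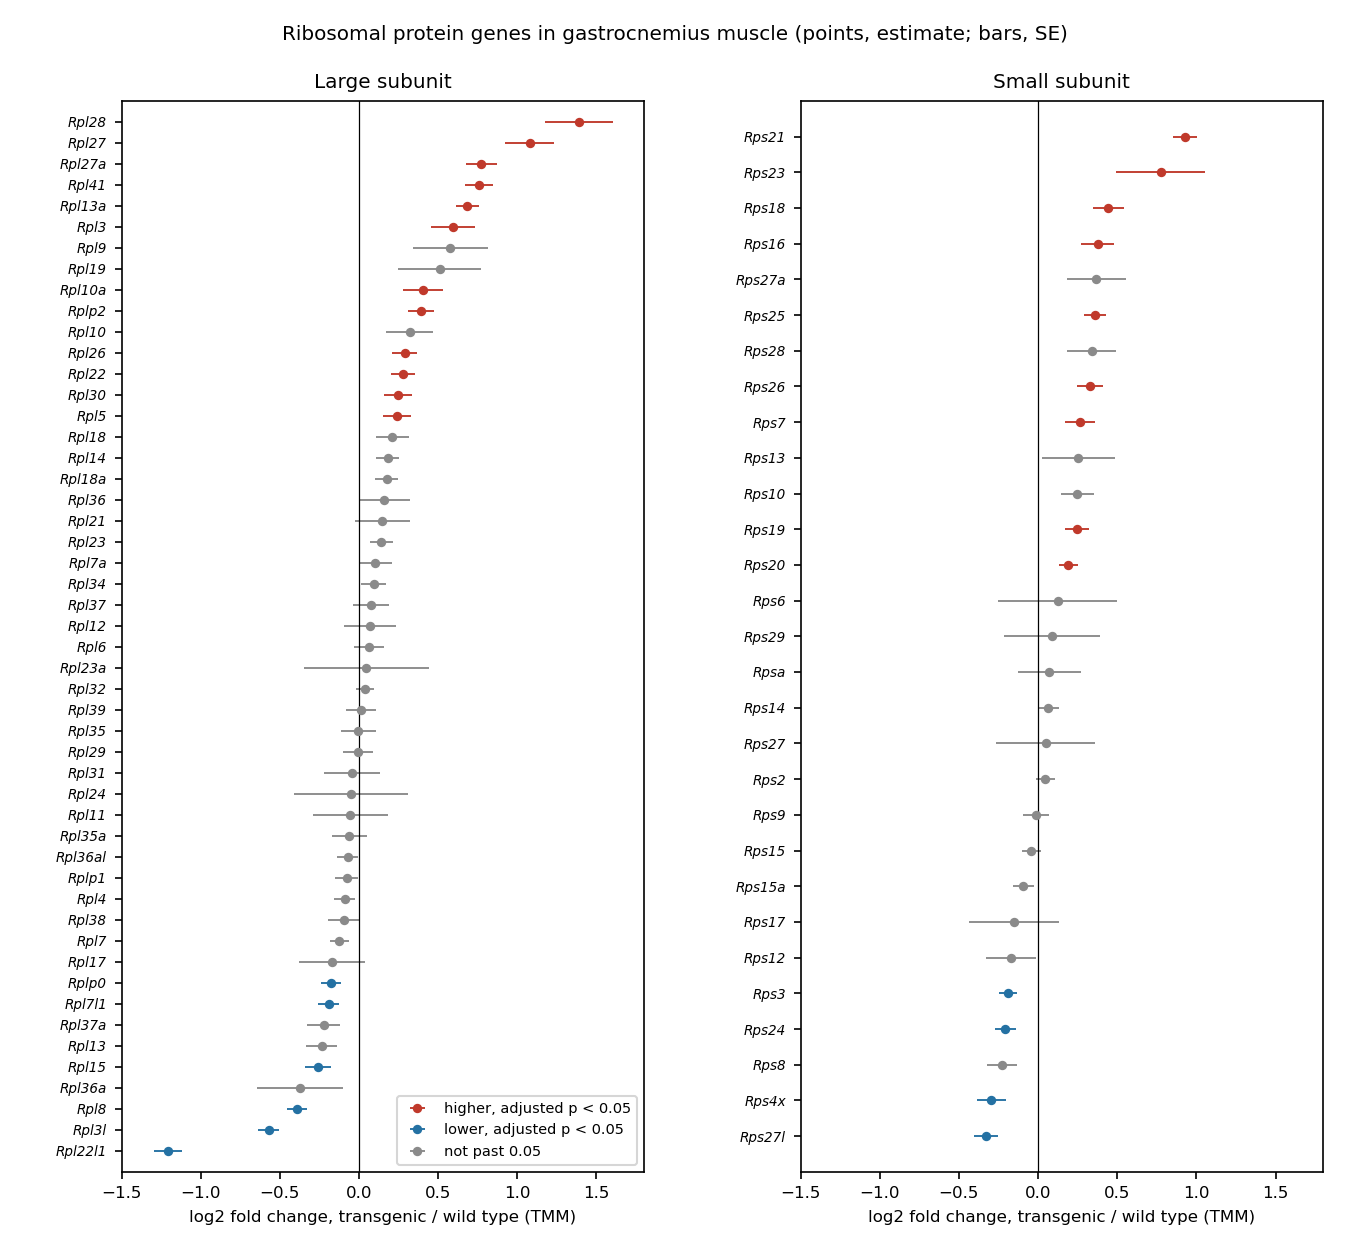
Log2 fold change (horizontal axis, transgenic over wild type) of the tested ribosomal protein genes reported here (vertical axis), split by subunit. Points are edgeR estimates and bars their standard errors; red marks genes called higher, blue genes called lower and grey genes not called, with Rpl28 at the top (1.39) and Rpl22l1 at the bottom (-1.21).

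The paralogues Rpl3l and Rpl22l1 fell, while their canonical partners Rpl3 and Rpl22 rose. Rpl3l (ENSMUSG00000002500, chromosome 17, 24727820 to 24736143, GRCm38) measured 402, 371 and 388 CPM in the transgenic libraries and 535, 603 and 586 CPM in the wild-type libraries. Every transgenic value lay below every wild-type value. The level fell by 0.57 on the log2 scale (standard error, SE, 0.07; edgeR adjusted p = 3.64e-05), a wild-type level 1.48 times the transgenic level. With library totals alone the decrease shrank to -0.17 and kept its call (adjusted p = 0.0266).

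Rpl3, the canonical protein, lines the path to the peptidyl transferase centre. Its level (ENSMUSG00000060036, chromosome 15, 80077791 to 80091868) was 5.59, 5.16 and 4.93 CPM in the transgenic and 3.90, 3.37 and 3.12 CPM in the wild-type libraries, again without overlap. The log2 fold change was 0.59 (SE 0.14, edgeR adjusted p = 0.00384). Per kb of exon, the count of Rpl3l was 139, 139 and 152 times that of Rpl3 in the transgenic libraries and 265, 346 and 363 times in the wild-type libraries. This ratio, which does not depend on scaling between libraries, fell by 1.17 on the log2 scale. The exact permutation test of 3 against 3 libraries cannot go below p = 0.10, and it gave 0.10 (2-sided; 0.30 after adjustment over 6 pairs).

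The size of the ratio itself was uncertain. Only 14.4% of the 50-base stretches of the Rpl3 transcript occur in no other gene's transcripts, against 100% for Rpl3l, and the file header shows no option to count reads that align to several places. Rpl3 counts were 170, 155 and 184 in the transgenic and 90, 117 and 70 in the wild-type libraries.

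Rpl22l1 had the largest decrease of the members tested. It is the paralogue of the RNA-binding protein Rpl22 and is known to be repressed by Rpl22 in other tissues. Rpl22l1 (ENSMUSG00000039221, chromosome 3, 28805436 to 28807424) measured 8.38, 8.13 and 8.47 CPM in the transgenic and 21.3, 18.6 and 17.9 CPM in the wild-type libraries. The transgenic libraries agreed closely and all lay below 9 CPM. The log2 fold change was -1.21 (SE 0.09, edgeR adjusted p = 1.43e-06), and it lay between -1.26 and -0.81 over 15 alternative settings. Rpl22l1 shares 159 exonic bases with Gm33051, a gene with 29, 31 and 35 counts in the transgenic and 79, 76 and 52 in the wild-type libraries, compared with 255, 244 and 316 against 492, 645 and 401 counts for Rpl22l1.

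Rpl22 (ENSMUSG00000028936, chromosome 4, 152325742 to 152334071) moved the other way. It measured 121, 123 and 135 CPM in the transgenic and 99.3, 116 and 98 CPM in the wild-type libraries, with a log2 fold change of 0.28 (SE 0.07, edgeR adjusted p = 0.00876). The adjusted p was 0.0510 without wild-type library 3. The ratio of Rpl22l1 to Rpl22 per kb was 0.101, 0.0966 and 0.0917 in the transgenic and 0.314, 0.235 and 0.267 in the wild-type libraries. It fell by 1.49 on the log2 scale (exact permutation p = 0.10, the smallest possible, and 0.30 after adjustment over 6 pairs).

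**Figure D2:**
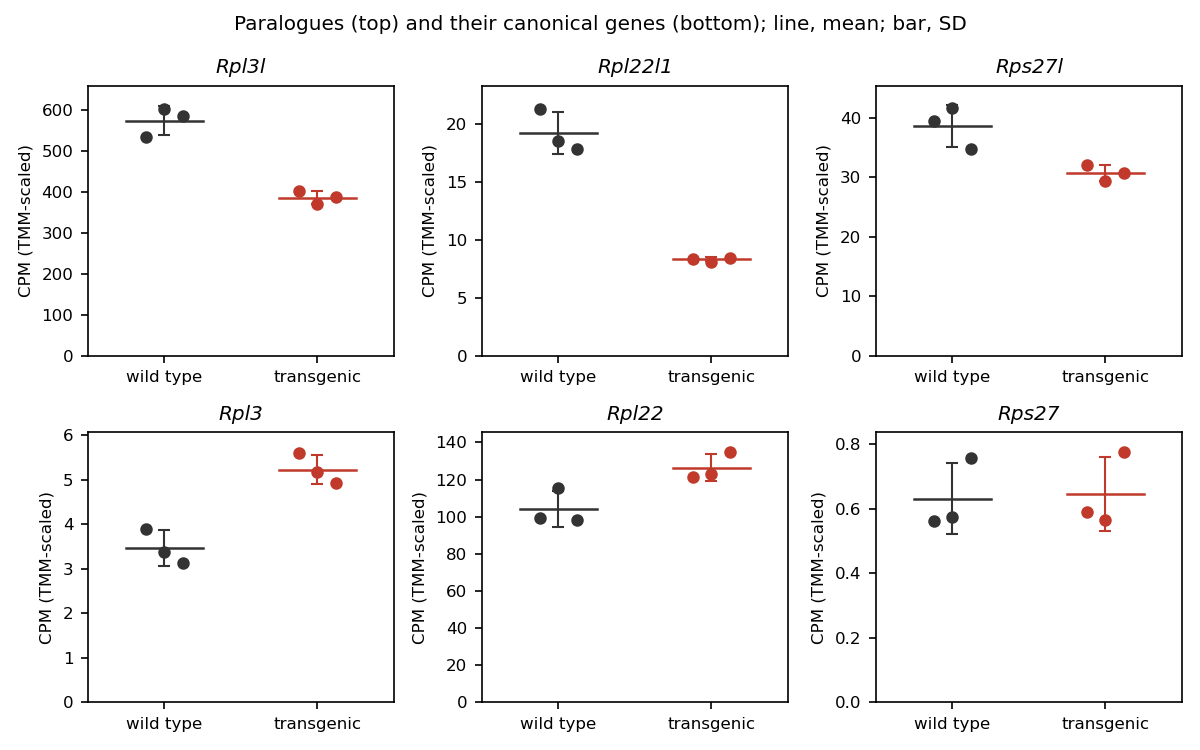
Level in each library (CPM on TMM-scaled library sizes, linear axis from 0) of Rpl3l, Rpl22l1 and Rps27l above and of Rpl3, Rpl22 and Rps27 below, in wild type (black) and transgenic muscle (red), with the mean and SD of 3 libraries. Rpl3l, Rpl22l1 and Rps27l lie lower in all 3 transgenic libraries, Rpl3 and Rpl22 lie higher, and Rps27, below 0.8 CPM, overlaps.

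The other paralogues showed smaller differences. Rps27l, the partner of Rps27 and a known p53 target, measured 32.1, 29.5 and 30.7 CPM in the transgenic and 39.6, 41.6 and 34.8 CPM in the wild-type libraries (log2 fold change -0.33, SE 0.08, edgeR adjusted p = 0.00365; 0.06 with library totals alone). Its ratio to Rps27 overlapped between genotypes (log2 difference -0.35, exact permutation p = 0.30, adjusted p = 0.45), and Rps27 itself had only 13 to 29 counts per library. Rpl7l1, which takes part in ribosome assembly, changed by -0.19 on the log2 scale (SE 0.07, edgeR adjusted p = 0.0335). That call was lost with the DESeq2 Wald test (adjusted p = 0.0923), without a filter on low counts (0.195) and without transgenic library 1, 2 or 3 or wild-type library 3 (0.0778, 0.153, 0.0874 and 0.116), and its sign turned with library totals alone (0.21). Its ratio to Rpl7 differed by -0.07 on the log2 scale (exact permutation p = 0.60, adjusted p = 0.60).

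Rpl36al, a retrogene copy of the X-linked Rpl36a, measured 25.9, 24.7 and 26.3 CPM in the transgenic and 26.6, 28.2 and 26.2 CPM in the wild-type libraries (log2 fold change -0.07, SE 0.07, edgeR adjusted p = 0.381). Rpl36a stood at 1.08 and 1.37 CPM (log2 difference -0.37, SE 0.27, edgeR adjusted p = 0.278), and the ratio of the pair differed by 0.27 (exact permutation p = 0.30, adjusted p = 0.45). Rps4l, annotated as a transcribed pseudogene and so no member, differed from Rps4x in its ratio by 0.12 on the log2 scale (exact permutation p = 0.60, adjusted p = 0.60). Rpl10l and Rpl39l, paralogues known from testis, were close to absent. Rpl10l had 1, 1 and 0 counts in the transgenic and 0, 0 and 0 in the wild-type libraries, and Rpl39l had 1, 1 and 4 against 1, 0 and 0, where 3 counts correspond to 0.0804 to 0.134 CPM. Their canonical partners Rpl10 (log2 fold change 0.32, SE 0.15, edgeR adjusted p = 0.10) and Rpl39 (0.01, SE 0.10, adjusted p = 0.915) did not pass the test. In all, 4 of the 5 paralogues tested were called lower and 0 higher, where 25.2% of all genes were lower, and with library totals alone only Rpl3l and Rpl22l1 stayed lower. Without the paralogues 23 of 76 members were called higher and 6 lower (30.3% and 7.89%, against 25.5% and 25.2% of all genes).

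Of the 50 large subunit genes tested, 12 were higher and 6 lower (24% and 12%, against 25.5% and 25.2% of all genes), with a median log2 fold change of 0.07. Without TMM factors the calls were 38 higher and 2 lower, when 85.7% of calls over all genes were higher. Rpl13a, which is known to leave the ribosome and repress translation of inflammatory mRNAs in macrophages, measured 250, 251 and 269 CPM in the transgenic and 153, 179 and 147 CPM in the wild-type libraries. The gap between the genotypes was far wider than the spread within either. Its log2 fold change was 0.69 (SE 0.07, edgeR adjusted p = 2.25e-05). Rpl13a shares 621 exonic bases with Gm45713, and since fragments over both genes counted for both, Gm45713 showed nearly the same values (means of 251 and 157 CPM, log2 fold change 0.67), so the 2 genes cannot be told apart.

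Rpl41, the smallest ribosomal protein, sits where the subunits meet. It measured 65.3, 60.7 and 75.3 CPM in the transgenic and 37.0, 43.5 and 38.3 CPM in the wild-type libraries (log2 fold change 0.76, SE 0.09, edgeR adjusted p = 5.63e-05). Rpl27a measured 12.5, 11 and 11.5 CPM against 6.41, 6.97 and 7.13 CPM and changed by 0.77 on the log2 scale (SE 0.10, adjusted p = 6.34e-05 by the same test). Rpl27 reached 4.21, 4.23 and 4.23 CPM against 1.73, 1.96 and 2.32 CPM, and its log2 fold change was 1.08 (SE 0.16, edgeR adjusted p = 0.000174).

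Rpl28 had the largest increase of the members, from low counts. Its counts were 136, 98 and 158 in the transgenic and 25, 63 and 36 in the wild-type libraries, or 4.47, 3.26 and 4.23 against 1.08, 1.81 and 1.6 CPM. The log2 fold change was 1.39 (SE 0.21, edgeR adjusted p = 0.000252). Rpl28 shares 183 exonic bases with Ube2s on the opposite strand, whose log2 fold change was 0.40 (adjusted p = 0.0473 by the same test), and strand was not used in counting. Rpl13a, Rpl41, Rpl27a, Rpl27 and Rpl28 kept their direction and call under all 15 alternative settings.

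Among large subunit genes that were lower, Rpl8, a protein near the peptidyl transferase centre, followed Rpl22l1 and Rpl3l. Rpl8 measured 220, 217 and 223 CPM in the transgenic and 271, 316 and 278 CPM in the wild-type libraries. The log2 fold change was -0.39 (SE 0.07, edgeR adjusted p = 0.000463), and it was 0.01 with library totals alone. Rpl15, which is needed to form the large subunit, stood at -0.26 on the log2 scale (SE 0.08, edgeR adjusted p = 0.0224), and its values overlapped. The Rpl15 call was lost without transgenic library 1 or 2 or wild-type library 1 or 2 (adjusted p between 0.0653 and 0.106).

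The proteins that bind 5S ribosomal RNA and the acidic stalk are described as groups chosen after their values were seen. Rpl5 and Rpl11 form the 5S particle that can also bind Mdm2 and stabilise p53. Rpl5 had 17.5 against 14.8 CPM (log2 fold change 0.24, SE 0.09, edgeR adjusted p = 0.0404), a call lost with the DESeq2 Wald test (0.0790) and without transgenic library 2 or 3 or wild-type library 1 or 3 (0.0749, 0.0658, 0.0981 and 0.166). Rpl5 shares 953 exonic bases with Fam69a, and only 6.16% of its 50-base stretches occur in no other gene's transcripts. Rpl11 was counted at only 1.38 and 1.44 CPM (log2 fold change -0.05, SE 0.24, adjusted p = 0.866). The stalk proteins recruit elongation factors to the ribosome. Rplp2 was higher (84.6 against 64.3 CPM, log2 fold change 0.39, SE 0.08, edgeR adjusted p = 0.00207), Rplp1 did not pass the test (111 against 117 CPM, -0.08, SE 0.07, adjusted p = 0.402), and Rplp0 was lower (204 against 231 CPM, -0.17, SE 0.06, adjusted p = 0.0372). The Rplp0 call was lost without a filter on low counts (0.141) and without transgenic library 1 or 2 or wild-type library 2 or 3 (0.136, 0.167, 0.122 and 0.0723), and its sign turned with library totals alone (0.22). With library totals alone all 3 stalk genes were called higher (Rplp2 0.79, Rplp1 0.32), so the mixed directions hold with TMM factors and not without scaling factors.

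Of the 31 small subunit genes, all tested, 11 were higher and 4 lower (35.5% and 12.9%, against 25.5% and 25.2% of all genes), with a median log2 fold change of 0.12. Without TMM factors the calls were 22 higher and 0 lower, when 85.7% of calls over all genes were higher. Rps21 stood out. This small protein of the solvent side (ENSMUSG00000039001, chromosome 2, 180257377 to 180258445) measured 99.8, 90.7 and 105 CPM in the transgenic and 50.6, 56.2 and 48.2 CPM in the wild-type libraries. Its log2 fold change was 0.93 (SE 0.07, edgeR adjusted p = 2.35e-06) and lay between 0.87 and 1.32 over 15 alternative settings.

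Rps25, which is needed for initiation at some viral internal entry sites, changed by 0.36 on the log2 scale (SE 0.07, edgeR adjusted p = 0.00143), and Rps18 by 0.44 (SE 0.10, adjusted p = 0.00283). Rps25 shares 462 exonic bases with Trappc4, and Rps18 shares 156 with Vps52. Of their 50-base stretches, 27.2% and 13.3% occur in no other gene's transcripts.

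The 4 small subunit genes called lower changed little. After Rps27l, these were Rps3, which also acts in DNA repair, Rps4x, the X-linked form of Rps4, and Rps24, a gene mutated in Diamond-Blackfan anaemia. Rps3 measured 177, 178 and 191 CPM in the transgenic and 201, 219 and 203 CPM in the wild-type libraries (log2 fold change -0.19, SE 0.06, edgeR adjusted p = 0.0155). By the same test Rps4x changed by -0.29 (SE 0.09, adjusted p = 0.0181) and Rps24 by -0.21 (SE 0.07, adjusted p = 0.0209). All 3 calls were lost under some settings. The Rps3 call was lost without transgenic library 1 or 2 or wild-type library 2 (0.0802, 0.0778 and 0.0522), the Rps4x call without transgenic library 2 or wild-type library 1 or 2 (0.0860, 0.0657 and 0.0660), and the Rps24 call without transgenic library 2 (0.136). Without a filter on low counts the Rps3 call (0.0781) and the Rps24 call (0.123) were lost, and the latter also with the DESeq2 Wald test (0.0553). With library totals alone all 3 were above 0, at 0.20, 0.10 and 0.19.

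The balance of the subunits differed between genotypes. Summed over genes, the large subunit amounted to 2576, 2487 and 2659 CPM in the transgenic and 2563, 2911 and 2641 CPM in the wild-type libraries, which overlap. The small subunit amounted to 1684, 1612 and 1787 CPM in the transgenic and 1429, 1594 and 1418 CPM in the wild-type libraries, which do not overlap. The ratio of large to small was 1.53, 1.54 and 1.49 in the transgenic and 1.79, 1.83 and 1.86 in the wild-type libraries, and it does not depend on the scaling between libraries. No test was made of this sum over members.

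A few genes held much of that ratio. Rpl3l alone took 9.44%, 9.04% and 8.74% of all members' counts in the transgenic and 13.4%, 13.4% and 14.4% in the wild-type libraries. Without Rpl3l the ratio was 1.29, 1.31 and 1.27 against 1.42, 1.45 and 1.45, still without overlap. Differences in mean level were -188 CPM for Rpl3l and -68.5 CPM for Rpl8 on the large side. Set against these were gains of 97.2 CPM for Rpl13a on the same side and 46.7 CPM for Rps21 on the small side. The gain of Rps21 was not the largest on the small side, where larger gains are not reported here.

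**Figure D3:**
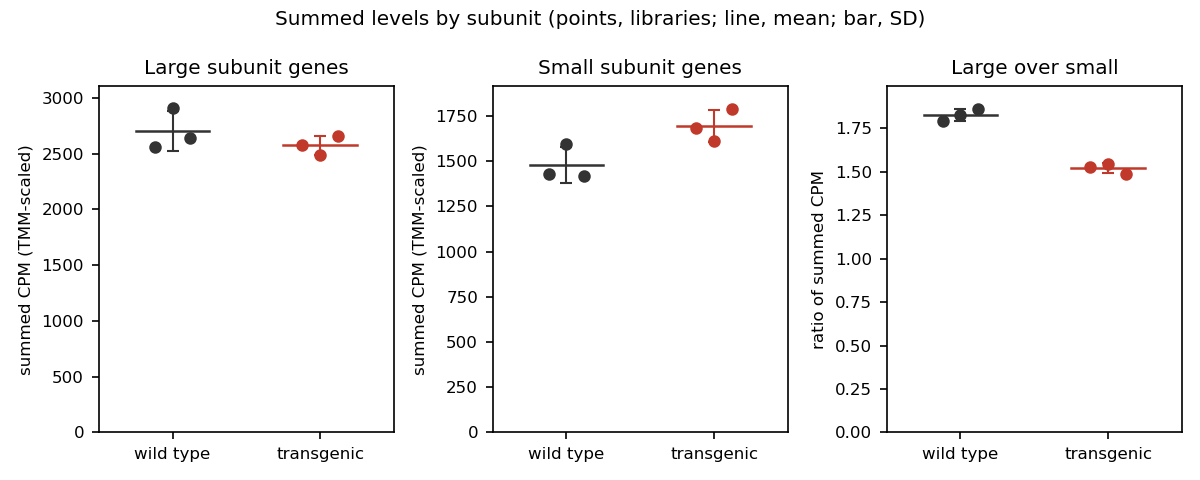
Summed level of large subunit genes and of small subunit genes (CPM on TMM-scaled library sizes), and the ratio of the sums, in each of 3 wild-type (black) and 3 transgenic (red) libraries, with mean and SD and axes from 0. The large subunit sums overlap, the small subunit sums are higher in transgenic muscle, and the ratios fall from 1.79 to 1.86 in wild type to 1.49 to 1.54 in transgenic muscle.

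The counted levels of the members ranged over 3 orders of magnitude, although ribosomes hold most of these proteins in equal number. Per kb of exon, Rpl3l was highest in wild-type muscle at 350 CPM per kb, followed by Rpl4, which shapes the exit tunnel, at 247 and by Rplp1 at 235. Rpl4 measured 470, 453 and 476 CPM in the transgenic and 474, 537 and 477 CPM in the wild-type libraries (log2 fold change -0.09, SE 0.07, edgeR adjusted p = 0.285), so in transgenic muscle Rpl3l (236 CPM per kb) and Rpl4 (232) were level. The lowest tested member per kb was Rps6, the substrate of the S6 kinases, at 0.263 CPM per kb, with 12, 16 and 16 counts in the transgenic and 13, 13 and 7 in the wild-type libraries. For 27 of the 83 members at least 1 library held under 100 counts.

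Levels went with the uniqueness of the sequence. The 18 members with under 20% unique 50-base stretches had a median of 1.35 CPM per kb in wild-type muscle, the 32 members between 20% and 60% had 8.13, and the 33 members at 60% or more had 19.9. Across the 81 tested members the Spearman correlation of uniqueness with level was 0.54. With the log2 fold change it was -0.15. These points share the same libraries, and both are descriptions. Rows of 282 processed pseudogenes named after ribosomal proteins held at most 0.00412% of the counts in any library. Levels are therefore not read here as an order of mRNA abundance. A fold change compares the same counted stretches in both genotypes, but for 39 members these include bases shared with other genes. The part of shared stretches in the fold changes was not tested. Among the 41 tested members with at least 50% unique stretches, 12 were higher and 8 lower (29.3% and 19.5%). Among the 21 members with a mean of at least 50 CPM, 9 were higher and 4 lower (42.9% and 19%). Of all tested genes 25.5% were higher and 25.2% lower. Both subsets were chosen after the data were seen.

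**Figure D4:**
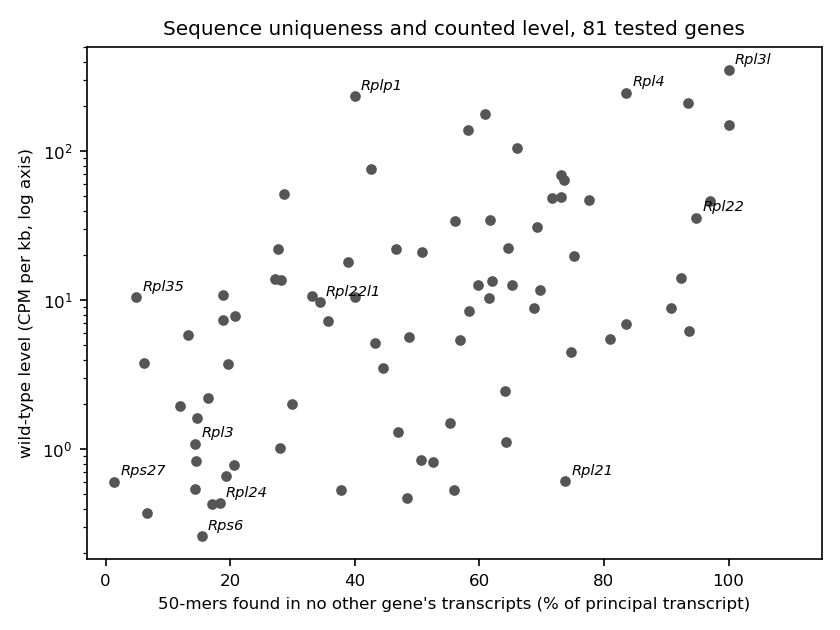
Share of 50-base stretches of each member's principal transcript found in no other gene's transcripts (horizontal axis, percent) against its wild-type level (vertical axis, CPM per kb of exon, log scale) for 81 tested members. Rps27, Rpl3, Rps6 and Rpl24 lie at low uniqueness and low level, while Rpl3l and Rpl4 lie at high uniqueness and high level.

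Members that rose were frequent on chromosome 7, a count made after the values were seen. Of 14 tested members there, 8 were higher and 1 lower, against 33.4% higher among 1345 tested genes of that chromosome. The 8 include Rpl13a, Rpl27a, Rpl28 and Rplp2.

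Some ribosomal proteins are made from genes with other names. Fau, which encodes a ubiquitin-like protein fused to the small subunit protein S30, was higher (3.25 against 2.24 CPM, log2 fold change 0.55, SE 0.16, edgeR adjusted p = 0.0166). That call was lost with the DESeq2 Wald test (adjusted p = 0.0571) and without transgenic library 3 (0.0596) or wild-type library 2 (0.0708). Rack1, a scaffold on the small subunit, had a log2 fold change of -0.0045 (SE 0.07).

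Genes that supply and use ribosomes also moved in both directions. Of 37 translation factors, 17 were higher and 13 lower (81.1% called against 50.7% of all genes), with a median log2 fold change of 0.12. Without TMM factors the calls were 26 higher and 8 lower. The initiation factors Eif3k (97.5 against 51.5 CPM, log2 fold change 0.92) and Eif5b (267 against 179 CPM, 0.58) were higher, while the poly(A)-binding protein Pabpc1 (58.4 against 112 CPM, -0.94) and Eif1ax (87.5 against 132 CPM, -0.60) were lower, each with an edgeR adjusted p of at most 8.30e-06. The elongation factor pair, named after its values were seen, resembles the Rpl3 pair, since Eef1a2 is the form of adult muscle. Eef1a1 measured 183, 155 and 218 CPM in the transgenic and 91.2, 85.3 and 78.1 CPM in the wild-type libraries (log2 fold change 1.13, SE 0.12, edgeR adjusted p = 0.000142). Eef1a2 measured 1594, 1421 and 1641 CPM against 1847, 2052 and 1970 CPM (-0.33, SE 0.07, adjusted p = 0.00290; 0.06 with library totals alone).

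Of 39 ribosome assembly factors tested, 11 were higher and 9 lower, with a median of 0.05 (31 and 1 with library totals alone). The 51.3% called was close to the 50.7% of all genes. Nol6 (62.2 against 34.1 CPM, log2 fold change 0.87) and Nip7 (15.7 against 9.87 CPM, 0.67) were higher, and Tcof1 (29.6 against 45.5 CPM, -0.62) and Dkc1 (19.3 against 28.5 CPM, -0.57) were lower. The Dkc1 call was lost with library totals alone (-0.17, edgeR adjusted p = 0.0791). Of 15 genes of RNA polymerase I and its factors, which transcribe ribosomal RNA, 3 were higher and 2 lower, with a median of -0.0035 (33.3% called against 50.7% of all genes). The smallest p-values in the 2 directions were those of Rrn3 (78.5 against 63.8 CPM, 0.30) and Twistnb (7.98 against 13.3 CPM, -0.74). Of 10 chaperones and modifiers of ribosomal proteins, 1 was higher and 3 lower (40% called against 50.7% of all genes). The higher gene was Aamp (133 against 81.8 CPM, 0.70). The lower genes were the methyltransferases Prmt3 (16.0 against 20.9 CPM, -0.39) and Mettl18 (2.29 against 3.25 CPM, -0.51) and the chaperone Bccip (62.9 against 75.5 CPM, -0.26). With library totals alone 0 of them stayed lower and Prmt3 (0.0082) and Bccip (0.13) turned positive. Mettl18 was named after its values were seen. Its call was also lost with the DESeq2 Wald test (adjusted p = 0.0826) and without a filter on low counts (0.0684). It was lost too without transgenic library 2 or 3 or wild-type library 1 or 2 (0.0685, 0.109, 0.0957 and 0.0580).

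Of 9 regulators of ribosomal protein mRNA, 1 was higher and 5 lower, with a median of -0.25, or 4 higher and 1 lower without TMM factors. Of all genes 25.5% were higher and 25.2% lower. Eif4ebp1, which blocks cap-dependent initiation until mTOR phosphorylates it, was lower (16.9 against 38.9 CPM, log2 fold change -1.20, SE 0.13, edgeR adjusted p = 5.71e-05). Its relative Eif4ebp2 was lower as well (351 against 472 CPM, -0.43, SE 0.06, adjusted p = 7.93e-05), though its value with library totals alone was -0.03 (adjusted p = 0.626). The S6 kinase gene Rps6kb2 was higher (39.5 against 23.1 CPM, 0.77, SE 0.07, adjusted p = 7.26e-06). The members these genes act on did not follow a single direction, as the plot of lists shows.

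**Figure D5:**
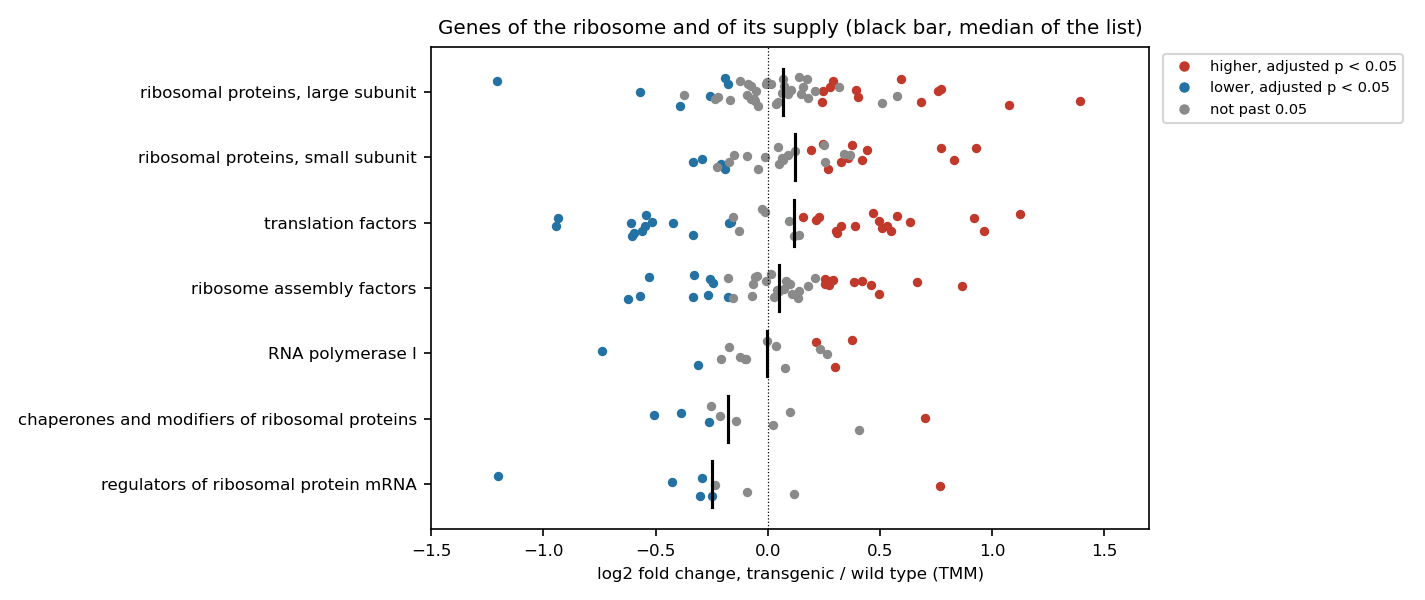
Log2 fold change (horizontal axis, transgenic over wild type) of every tested gene of the ribosome and of 5 lists of genes around it (vertical axis, with vertical jitter). Red marks genes called higher, blue lower and grey not called; black bars are list medians, from 0.12 for small subunit genes to -0.25 for regulators of ribosomal protein mRNA.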

How the data were processed

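Per the labels' protocols, RNA of pulverised frozen gastrocnemius was isolated in Trizol and made into Illumina libraries. The submitters' processing notes name STAR 2.5.0a, featureCounts 2.0.0 and the build GRCm38.p6. As stated per the file headers, the deposited fragment counts per gene ignore strand, count a fragment for each gene it overlaps, and carry no option for multi-mapping reads. The authors' deposited table gives DESeq2 log2 fold changes with p-values and adjusted p-values. The read length is not given in the sources used here.

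Counts of all genes were filtered with filterByExpr, scaled by TMM and tested with edgeR 4.0.16 in R 4.3.3 (robust quasi-likelihood fit with a genotype term), adjusted by Benjamini-Hochberg over 16593 genes at a threshold of 0.05. The biological coefficient of variation was 10.7%, and 3 counts equal 0.0804 to 0.134 CPM. The script was tested on simulated data. Libraries of the same genotype differed beyond sampling noise (9.92 to 24.0 for chi-square over degrees of freedom). Annotation came from GENCODE M21 (GRCm38), which matched 51718 of 51911 gene IDs. Uniqueness is the share of 50-base stretches of the longest principal transcript absent from other genes' transcripts on either strand. RefSeq windows matched 63 members.

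The members, lists and tests were chosen with earlier results of these data known. Named by rule were all paralogues and their partners, in each subunit the 5 smallest p-values in each direction, and the 3 largest changes in each direction. The rule also named the 3 members highest and the 1 lowest per kb, Fau and Rack1. From each other list it named the called genes with the smallest p-values in each direction. Some genes that the rule names are not reported here. Alternatives were other scalings, DESeq2 1.42.0, limma 3.58.1 (voom), a fit without robust estimation, other filters, subsets of members, each library left out in turn and a replicate block.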

Additional observations from a re-analysis of the deposited data

How the results depend on the processing

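Over the alternatives run for each of 57 named genes, 26 kept direction and call throughout. The scaling mattered most. With library totals alone, members called were 60 higher and 2 lower (median 0.47), large subunit genes 38 and 2 (median 0.46) and small subunit genes 22 and 0 (median 0.52). Over all genes, 8676 were then called higher and 1448 lower (median 0.38). The lists then counted 2 higher and 0 lower for proteins with other names, 31 and 1 for assembly factors, 10 and 1 for RNA polymerase I, 26 and 8 for translation factors, 5 and 0 for chaperones, and 4 and 1 for regulators. Log2 fold changes of named genes that turned positive with library totals alone were, among named members, Rpl4 0.31, Rpl7 0.27, Rpl7l1 0.21, Rpl8 0.0054, Rpl11 0.34, Rpl15 0.14, Rpl24 0.34, Rpl36a 0.027, Rpl36al 0.32, Rplp0 0.22, Rplp1 0.32, Rps3 0.20, Rps4x 0.10, Rps24 0.19 and Rps27l 0.065. Outside the members they were Rps4l 0.23, Rack1 0.39, Eef1a2 0.062, Bccip 0.13, Prmt3 0.0082 and Taf1c 0.085. Rack1 also turned without a filter on low counts (0.035) and with at least 1 CPM in 3 libraries (0.0054). Without a filter, 6 members and 2 small subunit genes were lower, and with at least 1 CPM in 3 libraries the small subunit median was 0.26. With the DESeq2 Wald test, 20 members were higher and 8 lower, 0 proteins with other names were higher, 1 gene of RNA polymerase I was lower and 2 chaperones were higher. Members that share no exonic bases gave 11 higher calls (26.2%) and members with at least 50% unique stretches 12 (29.3%). Members with a mean of at least 50 CPM gave 9 higher and 4 lower (42.9% and 19%). Of all tested genes 25.5% were higher and 25.2% lower. Leaving out each library in turn gave 16 to 29 members higher, 4 to 10 lower and a median of 0.042 to 0.16. It gave 3 to 6 large subunit genes lower (median 0.0054 to 0.15), and 7 to 12 small subunit genes higher and 1 to 4 lower (median 0.14 to 0.23). The range was -0.12 to 0.021 for the log2 ratio of Rpl7l1 to Rpl7, -0.052 to 0.058 for Rack1, -0.21 to 0.10 for Rpl11, -0.19 to 0.062 for Rpl24, -0.040 to 0.084 for Rpl39, -0.10 to 0.18 for Rps27 and -0.030 to 0.37 for Rps6. The cause of these shifts was not tested.

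Deviations of same-numbered libraries from their genotype's mean correlated at 0.10, -0.09 and -0.21 over all genes, and not every library correlated best with its own number. With 3 libraries per genotype these correlations constrain each other, so they cannot decide whether the replicate numbers of the labels pair the libraries. With the replicate block 23 members were higher and 11 lower, and 32 of 33 calls remained. The block left the log2 ratio of large to small at -0.27.

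Depth limited 5 members with under 10 counts in at least 1 library, among them the paralogues Rpl10l and Rpl39l.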

Other observations

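The authors' deposited table lists 9 of the members. For Rpl24, named after its values were seen, that table gives a DESeq2 log2 fold change of 2.81 with an adjusted p of 5.39e-24, as deposited. The deposited counts of Rpl24 were 12, 16 and 14 in the transgenic and 12, 16 and 8 in the wild-type libraries, with a log2 fold change of -0.05 (edgeR adjusted p = 0.919). Rpl24 shares 484 exonic bases with Gm28037, and 18.3% of its 50-base stretches occur in no other gene's transcripts. The cause of the difference from the authors' value was not tested. The next largest difference among the members was 0.44, for Rpl28, where the authors' deposited table gives 0.96. Of 3355 genes in the authors' deposited table that were tested here, 131 differed by more than 1 in log2 fold change, and the median difference in size was 0.05. Rps28 is listed in the authors' deposited table at 0.63 and did not pass the test here (log2 fold change 0.34, edgeR adjusted p = 0.0899).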
